A study of Mus musculus with 8 samples.

Results

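The 10 genes described here encode the replacement histone variants of mouse embryonic stem cells (ESCs) and 2 proteins that handle one of them. They are H2afz and H2afv (both H2A.Z), H2afx (H2A.X), H2afy and H2afy2 (macroH2A), H3f3a and H3f3b (both H3.3), H1f0 (the linker histone H1.0), Vps72 (a chaperone that carries H2A.Z to the exchange complexes) and Anp32e (a chaperone that takes H2A.Z off). All probes whose gene name in the files was one of these were taken, giving 18 of the 39429 probes on the array, and 17 of the 18 were bright enough to be tested. Messenger RNA was measured on 8 one-colour Agilent arrays of E14 ESCs, a feeder-free mouse line, 72 hours after infection with lentiviruses that express short hairpin RNAs. The 4 groups had 2 arrays each, lettered A and B. Control KD cells received a hairpin labelled EGFP, Tip60 KD cells one against Tip60 (gene Kat5), Hdac6 KD cells one against Hdac6, and double KD cells were depleted of both, where KD stands for knockdown. All groups therefore carried a lentivirus, and no uninfected cells were measured. The comparisons ask how the loss of the Tip60-p400 acetyltransferase complex and of Hdac6, a deacetylase that binds it, alters gene expression in ESCs.

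Replacement variants are made throughout the cell cycle, unlike the canonical histones that are made during DNA replication, and are placed into chromatin by dedicated chaperones and remodelling enzymes. H2A.Z sits around transcription start sites and is inserted in place of H2A by the SRCAP and Tip60-p400 complexes, H3.3 is deposited at active genes by HIRA and at repeats by Atrx and Daxx, H2A.X is phosphorylated around DNA breaks, and macroH2A is linked with stably repressed genes. Tip60-p400 is thus both an acetyltransferase of H2A-type histones and an exchanger of H2A.Z.

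The knockdowns were first checked at the targeted genes. Each pair of levels below gives the A array and then the B array. Levels are the log2 of a probe's background-subtracted intensity over the 75th percentile of its array. Kat5 stood at 1.34 and 1.37 (control KD), 0.00 and 0.01 (Tip60 KD), 1.52 and 1.53 (Hdac6 KD), and -0.11 and 0.20 (double KD), so that 39.2% of the control intensity was left in Tip60 KD and 40.4% in double KD. Hdac6 stood at 2.21 and 2.18 (control KD), 1.74 and 1.77 (Tip60 KD), -0.28 and -0.32 (Hdac6 KD), and 0.30 and 0.34 (double KD). Its remaining intensity was 17.8% of control in Hdac6 KD and 27.3% in double KD, and it also fell to 73.9% in Tip60 KD (adjusted p = 0.00592). All 12 pluripotency genes on a fixed list were detected, and the intensities of the 11 of them measured on every array summed to between 332 and 367 times the 75th percentile on the 8 arrays. The brightest, Dppa5a (7.04 to 7.32 on the log2 scale), weighed most in this sum, and Pou5f1 ranged from 3.13 to 4.17. In Tip60 KD 5 of the 12 passed as higher and none as lower (limma, adjusted p under 0.1). Of all probes 20.8% were higher and 19.8% lower. Markers of neural cells (8 of 9 listed genes detected, Dcx not) summed to 2.99 and 3.34 in control KD, to between 3.34 and 3.84 in Hdac6 KD, and to between 4.98 and 5.77 in Tip60 KD and double KD. Primitive endoderm markers (4 of 10 detected) summed to 9.21 and 11.1 in control KD, to between 9.24 and 11.4 in Hdac6 KD, to 13.4 and 15.9 in Tip60 KD and to 12.0 and 15.8 in double KD. Most of this sum was 1 gene, Sparc, at 2.98 to 3.93 on the log2 scale, where the other 3 reached at most -0.41. The median log2 change of the 4 genes was -0.09 in Tip60 KD and -0.12 in double KD. Fibroblast markers (5 of 10 detected) summed to 2.58 and 2.93 in control KD, to 2.29 and 2.42 in Hdac6 KD, and to between 3.16 and 3.67 in Tip60 KD and double KD. The sums of these 3 lists thus stood higher in Tip60 KD and double KD than in control KD. In Hdac6 KD the fibroblast sums lay below control KD and the primitive endoderm sums overlapped with it. Both neural sums in Hdac6 KD lay above control KD, the lower of them narrowly. Of the 8 neural and 5 fibroblast genes, 2 each passed as higher in Tip60 KD and in double KD. Of all probes 20.8% and 16.8% did. In double KD 1 fibroblast gene passed as lower. The part of these lists in the results below was not tested.

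H2afz and H2afv encode the same kind of variant, and the 200 bases before the start of each are shown so that the 2 promoters can be set beside the changes of the genes, from RefSeq on build GRCm38.p6, 5′ to 3′ in the direction of the gene. Capitals mark the motif CCAAT on either strand. The H2afz stretch is chr3:137864287-137864486 on the plus strand and the H2afv stretch is chr11:6444444-6444643 on the minus strand.
H2afz: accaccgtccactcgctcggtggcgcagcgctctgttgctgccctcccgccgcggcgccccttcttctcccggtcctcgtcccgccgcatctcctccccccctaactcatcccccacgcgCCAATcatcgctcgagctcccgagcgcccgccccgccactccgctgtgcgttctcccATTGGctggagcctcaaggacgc
H2afv: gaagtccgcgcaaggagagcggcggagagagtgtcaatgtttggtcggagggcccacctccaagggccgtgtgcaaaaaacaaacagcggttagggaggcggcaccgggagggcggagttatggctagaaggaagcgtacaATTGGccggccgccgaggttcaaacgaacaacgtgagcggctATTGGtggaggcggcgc
Each of the 2 stretches holds 2 CCAAT motifs and 1 GGGCGG motif. All motifs were searched on both strands. A promoter was found for 8 of the 10 genes. Over those 8, CCAAT occurred 3 times for H3f3b and Anp32e, 1 time for H3f3a, and not at all for H2afy, H2afy2 and H1f0. Of 32851 mouse promoters of the same length, 29.3% held CCAAT at least once and 7.98% at least 2 times. The H3f3b promoter was the only one of the 8 with TATAAA, which 9.96% of promoters held, and none of the 8 held CACGTG, found in 5.26%. GGGCGG was held by 31.0% of promoters.

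In Tip60 KD the called genes among the 10 all went down in the reported fit. Of the 10 genes, each represented by its probe of highest mean intensity, 5 were lower than in control KD at an adjusted p under 0.1 and none was higher. With the array letter, which is also the slide, as a block, 6 passed (61.0% of all probes), the added one being Anp32e, which rose. The 5 were H2afz, H2afv, H2afx, H2afy and H3f3b. Over all 22594 probes tested 40.6% passed this threshold, 19.8% of them lower and 20.8% higher, as shares of all probes. The median change of the 10 genes was -0.14 on the log2 scale, against 0.07 over all probes. Counting every probe, 11 of 17 were lower and none higher, and these 11 came from 6 genes, since a second probe of H3f3a was among them. In Hdac6 KD 4 of the 10 genes passed, with H2afv and H2afy lower (15.1% of all probes were) and H2afy2 and Anp32e higher (14.9%) (30.0% of all probes passed; with the block 6 genes and 53.4%). In double KD 4 passed, with H2afv, H2afy and H3f3b lower (17.0% of all probes were) and Vps72 higher (16.8%) (33.8% of all probes passed; with the block 5 genes and 55.9%). The 3 comparisons use the same 2 control arrays, and the values are therefore not independent between them.

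**Figure D1:**
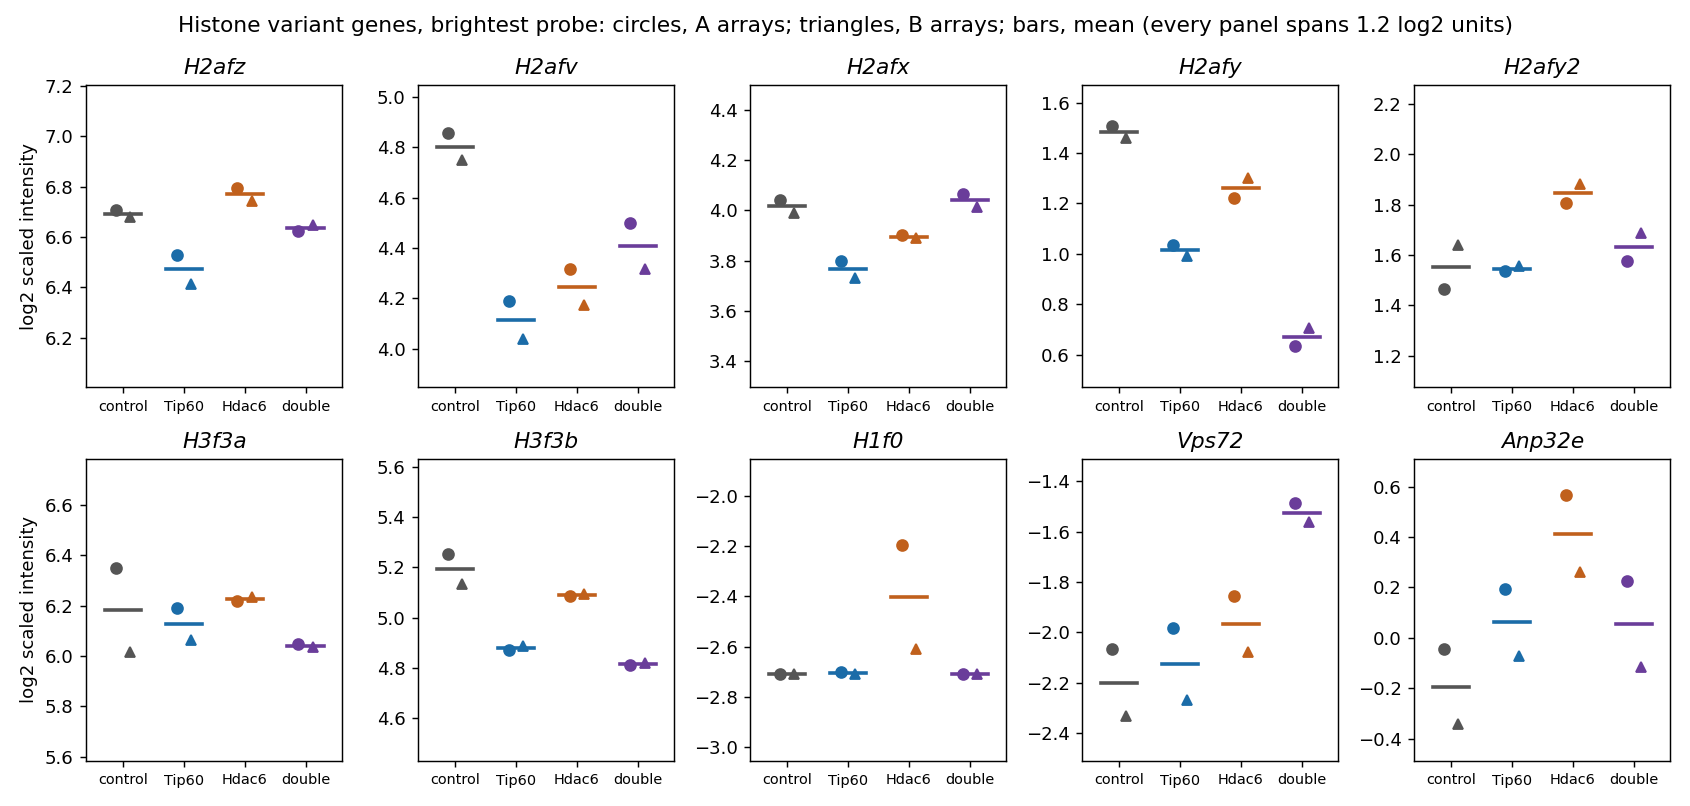
Level of each gene on the 8 arrays, as log2 of the intensity over the array's 75th percentile (vertical axis), by group (horizontal axis). Circles are A arrays, triangles B arrays and bars the mean of 2. In the H2afv panel all 6 KD arrays lie below both control arrays, and in the H2afy panel the double KD arrays are the lowest.

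H2A.Z is made from 2 genes whose proteins differ at a few residues. H2afz, the better studied and essential one, had 2 probes. The brighter (chromosome 3, 137529723 to 137529782, build mm9) read 6.71 and 6.68 (control KD), 6.53 and 6.41 (Tip60 KD), 6.79 and 6.74 (Hdac6 KD), and 6.62 and 6.65 (double KD). Both Tip60 KD arrays lay below all 6 others. The change in Tip60 KD was -0.22 ± 0.08 (log2, SE; 95% CI -0.41 to -0.03; adjusted p = 0.0754), leaving 85.8% of the control intensity. This call was weak. It was lost in 7 of 8 fits with 1 array left out, held only without Tip60 KD A, and quantile normalisation turned the value to 0.03 (adjusted p = 0.844). In Hdac6 KD the probe changed by 0.08 (adjusted p = 0.565) and in double KD by -0.06 (CI -0.24 to 0.13).

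The second H2afz probe (chromosome 3, 137529827 to 137529886) read 5.40 and 5.33 (control KD), 5.16 and 4.94 (Tip60 KD), 5.77 and 5.71 (Hdac6 KD), and 5.45 and 5.29 (double KD). It moved in opposite directions in the single KDs, by -0.31 ± 0.11 in Tip60 KD (adjusted p = 0.0727) and by 0.37 ± 0.11 in Hdac6 KD (adjusted p = 0.0578). Tip60 KD lay below Hdac6 KD by 0.69 on this probe (log2 change -0.69, adjusted p = 0.0116) and by a log2 change of -0.30 on the brighter one (adjusted p = 0.050). In double KD the second probe stood at the control level (log2 change 0.00, CI -0.26 to 0.27).

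H2afv, the second H2A.Z gene, fell in all 3 KDs, most firmly in Tip60 KD, and least in double KD on its brighter probe only. Its brighter probe (chromosome 11, 6328154 to 6328213, mm9, minus strand) read 4.86 and 4.75 (control KD), 4.19 and 4.04 (Tip60 KD), 4.32 and 4.18 (Hdac6 KD), and 4.50 and 4.32 (double KD). Control KD did not overlap with any other group. H2afv fell to 62.0% of control in Tip60 KD (log2 change -0.69 ± 0.11, adjusted p = 0.00574), to 68.0% in Hdac6 KD (-0.56 ± 0.11, adjusted p = 0.0186) and to 76.1% in double KD (-0.39 ± 0.11, adjusted p = 0.0461). The Tip60 KD call held in all 8 fits with 1 array left out. The Hdac6 KD call was lost without Hdac6 KD B (-0.49, adjusted p = 0.103), and the double KD call without control KD A (-0.34, adjusted p = 0.184), control KD B (-0.45, adjusted p = 0.103) or double KD B (-0.30, adjusted p = 0.182). The double KD call was also lost with normexp background correction (-0.39, adjusted p = 0.160), the same background on every array (-0.39, adjusted p = 0.137), quantile normalisation (-0.20, adjusted p = 0.145), the series matrix (-0.26, adjusted p = 0.335) and a fit of only the arrays compared (-0.39, adjusted p = 0.105). The second H2afv probe (chromosome 11, 6327229 to 6327288), a dimmer one, changed by -0.83, -0.50 and -0.51 in the 3 KDs (adjusted p = 0.00704, 0.0529 and 0.0443).

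Depleting both factors did not lower H2afv further than depleting either one. The double KD arrays lay above the sum of the single changes by 0.85 ± 0.15 on the log2 scale (interaction, CI 0.47 to 1.23, adjusted p = 0.0214), and by 0.82 ± 0.20 on the second probe (adjusted p = 0.0446). The interaction held in all 8 fits with 1 array left out, between 0.76 and 0.94. Of the 10 genes, 2 passed the interaction test, H2afv and H2afx, both on the higher side, against 23.3% of all probes, of which 11.2% on the higher and 12.1% on the lower side. With the block 4 passed, against 47.7%. Double KD and Tip60 KD differed by 0.29 for H2afv (CI 0.03 to 0.56, adjusted p = 0.232). With the array letter as a block this difference passed (adjusted p = 0.0220).

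**Figure D2:**
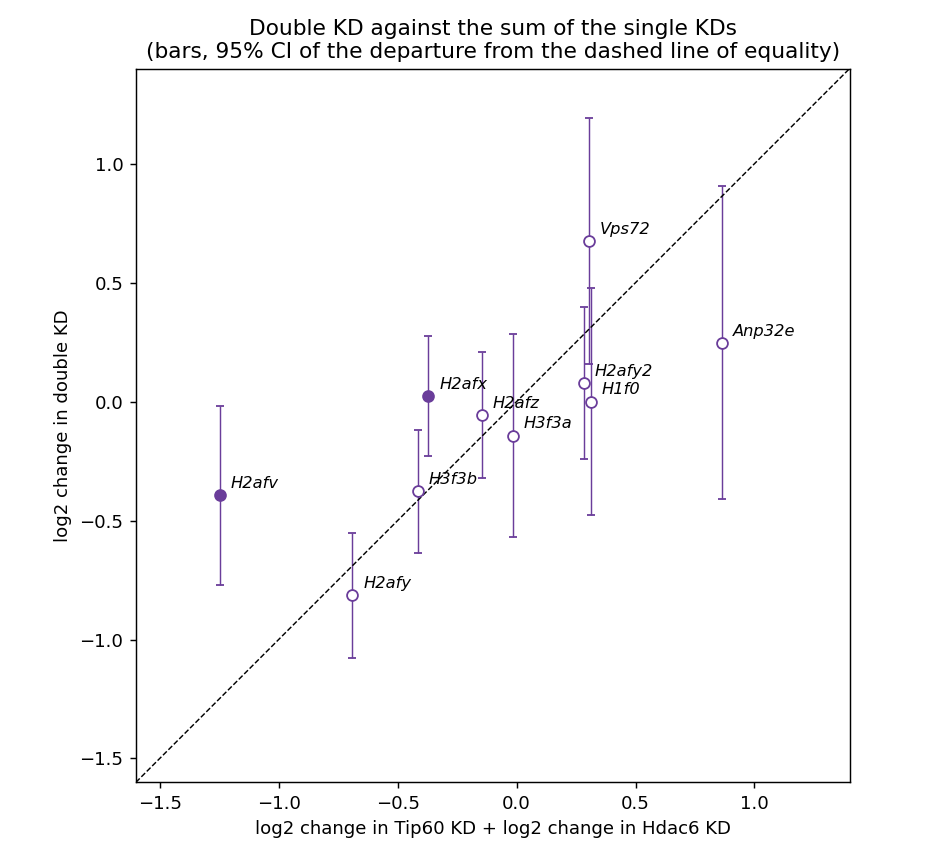
Log2 change in double KD (vertical axis) against the sum of the log2 changes in Tip60 KD and Hdac6 KD (horizontal axis), brightest probe of each gene. Bars are the 95% CI of the departure from the dashed line of equality, and filled points passed the interaction test. H2afv and H2afx lie above the line, while H2afy lies close to it.

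H2A.X, the variant phosphorylated at DNA breaks, comes from H2afx, which had 1 probe (chromosome 9, 44144033 to 44144092, mm9). It read 4.04 and 3.99 (control KD), 3.80 and 3.73 (Tip60 KD), 3.90 and 3.89 (Hdac6 KD), and 4.07 and 4.01 (double KD). The Tip60 KD arrays were the lowest and the double KD arrays overlapped with control KD. H2afx fell to 84.1% in Tip60 KD (-0.25 ± 0.07, adjusted p = 0.0435), a call lost without control KD A (-0.22, adjusted p = 0.153) or Tip60 KD B (-0.22, adjusted p = 0.151). In Hdac6 KD it changed by -0.12 (CI -0.30 to 0.06) and in double KD by 0.02 (CI -0.15 to 0.20). The interaction was 0.39 ± 0.10 (adjusted p = 0.0545). It passed in 1 of 8 fits with 1 array left out, the one without Tip60 KD A, while its value stayed between 0.36 and 0.43 (adjusted p from 0.0911 to 0.149).

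MacroH2A1, from H2afy, was the variant gene with the widest range of group means. Its brightest probe (chromosome 13, 56184528 to 56184587, mm9, minus strand) read 1.51 and 1.46 (control KD), 1.03 and 0.99 (Tip60 KD), 1.22 and 1.30 (Hdac6 KD), and 0.63 and 0.70 (double KD). No pair of groups overlapped, in the order control KD, Hdac6 KD, Tip60 KD and double KD from high to low. H2afy fell to 72.2% in Tip60 KD (-0.47 ± 0.08, adjusted p = 0.00603) and to 56.8% in double KD (-0.81 ± 0.08, adjusted p = 0.00208), and both calls held in all 8 fits with 1 array left out. The fall in Hdac6 KD to 85.8% (-0.22, adjusted p = 0.0921) held in none of those 8 fits, which gave adjusted p from 0.114 to 0.288.

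For H2afy the single changes and the double change were near additive, with an interaction of -0.12 (CI -0.39 to 0.14). Double KD lay below Tip60 KD by a log2 change of -0.34 (adjusted p = 0.0925) and below Hdac6 KD by -0.59 (adjusted p = 0.0170). H2afy was the 1 gene of the 10 that passed in either of these comparisons, where 4.73% and 10.2% of all probes did. It passed on the lower side, as 3.30% and 4.93% of all probes did, with 1.43% and 5.22% on the higher side. The first of the 2 calls held in 0 of 8 fits with 1 array left out and the second in 6, lost without Hdac6 KD A (adjusted p = 0.104) or Hdac6 KD B (adjusted p = 0.127). With the array letter as a block, 4 and 6 of the 10 genes passed, against 27.6% and 29.3% of all probes. A second probe, named for another transcript of H2afy (chromosome 13, 56205682 to 56205741), changed by -0.54, -0.21 and -0.64 in the 3 KDs (adjusted p = 0.00738, 0.168 and 0.00637), and its double KD value differed from Tip60 KD by -0.10 (CI -0.33 to 0.12). The step from Tip60 KD to double KD was thus called on 1 of the 2 probes. The third H2afy probe (chromosome 13, 56189613 to 56189672) stood at the floor on all 8 arrays, was well above background on 4, and was not tested.

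H2afy2, which encodes macroH2A2, went another way. Its probe (chromosome 10, 61201395 to 61201428, mm9, minus strand, a position that covers 34 of the 60 bases) read 1.47 and 1.64 (control KD), 1.54 and 1.55 (Tip60 KD), 1.81 and 1.88 (Hdac6 KD), and 1.58 and 1.69 (double KD). Hdac6 KD stood above all other arrays. The rise in Hdac6 KD was 0.29 ± 0.09 (adjusted p = 0.0747), to 122% of control, and it passed in 3 of 8 fits with 1 array left out, failing without control KD A, either Tip60 KD array or either Hdac6 KD array. The rise in Hdac6 KD was also lost with normexp, the same background on every array, quantile normalisation and the series matrix. It was lost too with no filter on dim probes, with only the arrays compared and at an adjusted p under 0.05. Tip60 KD gave -0.01 (CI -0.23 to 0.22) and lay below Hdac6 KD by a log2 change of -0.30 (adjusted p = 0.0810). In this last comparison 3 of the 10 genes passed, all lower in Tip60 KD (H2afz, H2afy and H2afy2), against 23.9% of all probes, of which 11.4% lower and 12.5% higher. With the block 5 passed, against 42.4% of all probes.

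**Figure D3:**
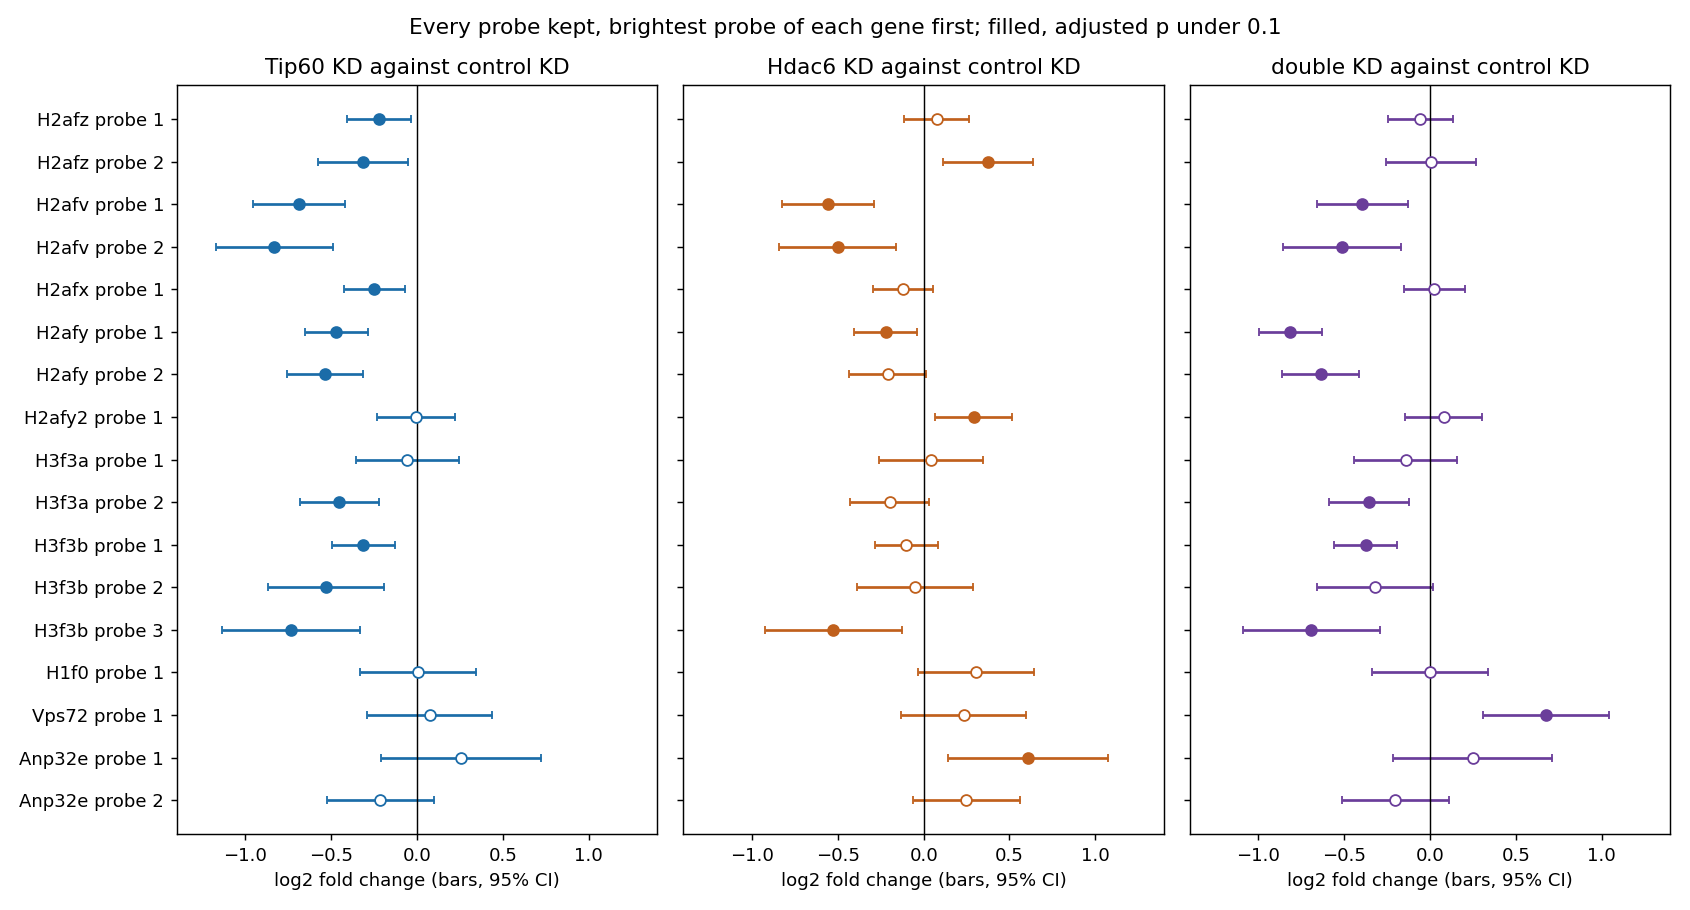
Log2 change of each of the 17 probes tested, with a panel for each KD against control KD (horizontal axis), with 95% CI as bars. Filled points had an adjusted p under 0.1. Probes are ordered within a gene from the brightest. The 11 filled points of the Tip60 KD panel all lie left of 0.

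H3.3, the H3 variant of active chromatin, is made as one protein from 2 genes. The brightest of 3 H3f3b probes read 5.25 and 5.13 (control KD), 4.87 and 4.89 (Tip60 KD), 5.09 and 5.09 (Hdac6 KD), and 4.81 and 4.82 (double KD). Tip60 KD and double KD lay below control KD and Hdac6 KD without overlap. H3f3b fell to 80.5% of control in Tip60 KD (-0.31 ± 0.07, adjusted p = 0.0231) and to 77.0% of it in double KD (-0.38 ± 0.07, adjusted p = 0.0170). Both calls held in all 8 fits with 1 array left out. In the series matrix both were lost (-0.10, adjusted p = 0.697, and -0.10, adjusted p = 0.780), and the double KD call was lost with quantile normalisation as well (-0.17, adjusted p = 0.170). In Hdac6 KD the value was -0.10 (CI -0.28 to 0.08). The other probes gave -0.53 and -0.73 in Tip60 KD (adjusted p = 0.0314 and 0.0181), and -0.32 and -0.69 in double KD (adjusted p = 0.151 and 0.0288). In Hdac6 KD the dimmest of the 3 passed (-0.53, adjusted p = 0.0711). The positions given for the first 2 of these probes begin at the same base (chromosome 11, 115883275, mm9) and cover 21 and 31 bases, less than the 60 bases of a probe, although the probes share no run of 15 bases, so their place in the gene is known only in part. The third lies at chromosome 11, 115883470 to 115883529.

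The 2 probes of H3f3a disagreed. The brighter (chromosome 1, 182733208 to 182733267, mm9, minus strand) read 6.35 and 6.02 in control KD, and its 6 KD values lay between 6.03 and 6.23, within the control spread. Its changes were -0.06, 0.04 and -0.14 in the 3 KDs, with none passing (adjusted p = 0.785, 0.869 and 0.475). The other (chromosome 1, 182732757 to 182732816) read 5.90 and 5.68 (control KD), 5.37 and 5.30 (Tip60 KD), 5.59 and 5.58 (Hdac6 KD), and 5.42 and 5.44 (double KD). It fell by 0.45 in Tip60 KD (adjusted p = 0.0147) and by 0.36 in double KD (adjusted p = 0.0410). A fall of H3f3a was therefore seen with 1 of 2 probes.

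Vps72, the H2A.Z chaperone shared by SRCAP and Tip60-p400, was dim. Its probe (chromosome 3, within 94922270 to 94922600, mm9) read -2.07 and -2.33 (control KD), -1.98 and -2.27 (Tip60 KD), -1.86 and -2.08 (Hdac6 KD), and -1.49 and -1.56 (double KD). The first 3 groups overlapped and double KD stood above all of them. The rise in double KD was 0.67 ± 0.15 (adjusted p = 0.0239), to 160% of control, and it was lost without control KD B (0.54, adjusted p = 0.108) or double KD A (0.64, adjusted p = 0.104). With quantile normalisation the value was 0.49 (adjusted p = 0.275), and in the series matrix, whose values were also scaled otherwise and had no floor or filter, 0.25 (adjusted p = 0.729). With the block, Vps72 also passed in Hdac6 KD (0.23, adjusted p = 0.0439), against Tip60 KD (0.60, adjusted p = 0.0101), against Hdac6 KD (0.44, adjusted p = 0.0121) and in the interaction (0.37, adjusted p = 0.0353).

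Anp32e, which removes H2A.Z from nucleosomes, read -0.04 and -0.34 (control KD), 0.20 and -0.07 (Tip60 KD), 0.57 and 0.26 (Hdac6 KD), and 0.22 and -0.12 (double KD) on its brighter probe (chromosome 3, 95740981 to 95741040, mm9). In every group the A array stood above the B array. The rise in Hdac6 KD was 0.61 ± 0.19 (adjusted p = 0.0729), to 152% of control, with 0.61 on the A arrays and 0.60 on the B arrays. In fits with 1 array left out, which had no block, the rise ranged from 0.45 to 0.76. Leaving out 1 control KD or Hdac6 KD array puts the difference between slides into it. With the block the rise passed. Without the block, the call was lost in the series matrix, with no filter on dim probes and with the mean of the gene's probes. It was also lost with only the arrays compared and at an adjusted p under 0.05. With the block the changes of 0.26 in Tip60 KD and 0.25 in double KD passed as well (adjusted p = 0.00968 and 0.0131), as did the interaction of -0.62 (adjusted p = 0.00313). The second probe (chromosome 3, 95750223 to 95750282) changed by -0.22, 0.25 and -0.20 in the 3 KDs, none passing without the block and all 3 with it (adjusted p = 0.0274, 0.0208 and 0.0369). The 2 probes thus had opposite signs in Tip60 KD and double KD and the same sign in Hdac6 KD, and with the block they were called in opposite directions in the former.

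H1f0, the linker histone variant of non-dividing and differentiated cells, was at the edge of detection. Its probe (chromosome 15, 78859930 to 78859989, mm9) stood at the floor of -2.71 on 5 of 8 arrays, and read -2.70 on Tip60 KD A, -2.20 on Hdac6 KD A and -2.61 on Hdac6 KD B. No change passed without the block (Hdac6 KD 0.31, adjusted p = 0.177), and with it the change in Hdac6 KD did (adjusted p = 0.0855). Its call depended on the floor: without one, the 3 KDs changed it by 0.71, 1.01 and 0.59, in the order Tip60, Hdac6, double, and all passed (adjusted p = 0.0373, 0.0204 and 0.0763).

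How far these falls rest on the scaling was examined probe by probe. Of the 17 probes, 14 were below control KD in Tip60 KD, whether called or not. With normexp background correction, the same background on every array and the series matrix 14 were also below it, and 12 with quantile normalisation. In the same order, the median log2 change over all probes was 0.07 as reported, then 0.06, 0.04, 0.01 and 0.03. The number called lower was 11 in the reported fit, where 40.6% of all probes were called in either direction and 19.8% lower. It was 8, 9, 9 and 5 with normexp, the same background, quantile normalisation and the series matrix. There 35.7%, 38.0%, 38.6% and 13.1% of all probes were called in either direction. Of those calls 50.4%, 49.7%, 51.5% and 51.2% were higher. In the series matrix the falls of H2afx and H2afy in Tip60 KD (-0.20 and -0.41, adjusted p = 0.305 and 0.106), that of H2afv in Hdac6 KD (-0.47, adjusted p = 0.118) and the H2afv interaction (0.86, adjusted p = 0.117) did not pass either. With normexp the H2afx fall did not pass (-0.26, adjusted p = 0.110), and 1 probe was called higher, that of H1f0. The background that had been subtracted differed between arrays, from a median intensity of 37.2 on Tip60 KD A to 114 on control KD B. Without control KD B, 14 of the 17 probes were below control KD A in Tip60 KD, and without control KD A, 13 were below control KD B.

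**Figure D4:**
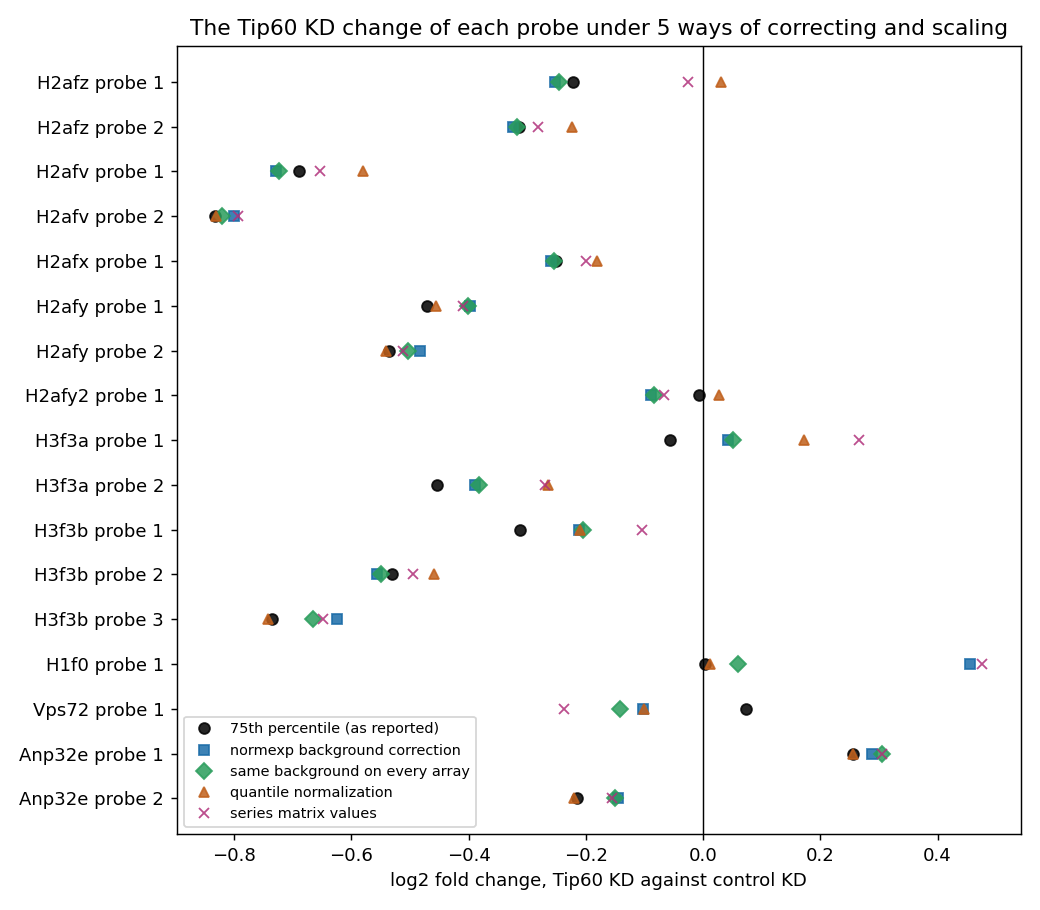
Log2 change in Tip60 KD against control KD (horizontal axis) of the 17 probes under 5 ways of treating background and scaling the arrays. Both H2afv probes, both H2afy probes and all 3 H3f3b probes stay left of 0 under every one, whereas the brighter H2afz probe crosses 0 with quantile normalisation.

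The genes that place and remove these variants were also counted, from lists of complexes and chaperones. Of 30 tested genes of the complexes that insert or remove H2A.Z (SRCAP, Tip60-p400 and INO80 among them), 9 rose and 7 fell in Tip60 KD, with a median of 0.11, and 5 rose and 2 fell in Hdac6 KD. In double KD 8 rose and 7 fell. Of all probes, Tip60 KD raised 20.8% and lowered 19.8%, Hdac6 KD raised 14.9% and lowered 15.1%, and double KD raised 16.8% and lowered 17.0%. This list and the next 4 are to be read against those shares. The largest rises in Tip60 KD were Yeats4 (1.04, adjusted p = 0.00434), a reader of acylated histone H3 in SRCAP and Tip60-p400, Actl6a (0.94, adjusted p = 0.00322), the actin-related subunit BAF53A, and Tfpt (0.62, adjusted p = 0.0670), an INO80 subunit. Kat5, the target itself, Mbtd1 (-0.51, adjusted p = 0.0146), a methyl-lysine reader of the Tip60 complex, and Uchl5 (-0.47, adjusted p = 0.0164), a deubiquitinase bound to INO80, fell most. Yeats4 and Actl6a had negative interactions of -1.12 and -0.72 (adjusted p = 0.0242 and 0.0453), the opposite sign to that of H2afv.

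Among 18 tested chaperones and depositors of H3.3 and H3, 2 rose and 3 fell in Tip60 KD, 5 rose and 2 fell in Hdac6 KD, and 4 rose and 4 fell in double KD (median -0.07 in Tip60 KD), so that 13 of 18 were not called in Tip60 KD, where 40.6% of all probes were called. Cabin1, a subunit of the HIRA complex, rose by 0.70 in Tip60 KD (adjusted p = 0.00502), and Ubn1, another, fell (-0.84, adjusted p = 0.00405), while Hira and Ubn2 did not pass (0.25 and -0.06, adjusted p = 0.106 and 0.610). Chaf1a, the large subunit of the replication-coupled assembly factor CAF-1, rose (0.47, adjusted p = 0.0151), and Rbbp4, a histone-binding subunit of the same factor, fell (-0.52, adjusted p = 0.00516), as did the H3-H4 co-chaperone Dnajc9 (-0.75, adjusted p = 0.00480). Rbbp4 shared with H2afv falls in all 3 KDs (-0.52, -0.49 and -0.38) and a positive interaction (0.63, adjusted p = 0.0202), and Chaf1a had a negative one (-0.58, adjusted p = 0.0432).

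Of 12 tested chaperones and importers of H2A and H2B, 3 rose and 1 fell in Tip60 KD, 4 rose and 1 fell in Hdac6 KD and 3 rose and 2 fell in double KD (median 0.09 in Tip60 KD), where 40.6%, 30.0% and 33.8% of all probes were called. The nucleosome assembly proteins Nap1l4 and Nap1l1 and nucleolin (Ncl) rose in Tip60 KD (0.70, 0.21 and 0.56, adjusted p = 0.00439, 0.0885 and 0.00903), and the nucleoplasmin-family gene Npm3 fell (-0.74, adjusted p = 0.0258). Ncl and Ipo9, an importer of H2A-H2B, had negative interactions (-0.64 and -0.53, adjusted p = 0.0350 and 0.0382). Of 17 tested genes of the response to H2A.X phosphorylation, 3 rose and 2 fell in Tip60 KD, 4 rose and 1 fell in Hdac6 KD, and 2 fell and none rose in double KD (median -0.03 in Tip60 KD), against the same shares of all probes. Mdc1, the adaptor that binds phosphorylated H2A.X, fell in all 3 KDs, by 1.76, 0.78 and 1.18 on the log2 scale (adjusted p = 0.00145, 0.0262 and 0.00677), with an interaction of 1.36 (adjusted p = 0.0209). The phosphatase gene Eya1 fell in Tip60 KD (-0.45, adjusted p = 0.0370), whereas Nbn of the MRN complex, the kinase gene Prkdc and the H2A deubiquitinase gene Usp16 rose (0.78, 0.42 and 0.32, adjusted p = 0.0153, 0.00802 and 0.0634). Nbn had an interaction of -0.77 (adjusted p = 0.0815).

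Other variant genes and their factors gave 1 rise and 3 falls in Tip60 KD among 11 tested, with 2 of each in Hdac6 KD and in double KD (median -0.11 in Tip60 KD), 4 of 11 in each, near the 40.6%, 30.0% and 33.8% of all probes. H2afj, another H2A variant, fell in all 3 KDs by nearly equal amounts (-0.51, -0.59 and -0.52, adjusted p = 0.00564, 0.00671 and 0.00759) and so had an interaction of 0.58 (adjusted p = 0.0260). Hjurp, the chaperone of the centromeric variant CENP-A, fell in Tip60 KD (-0.60, adjusted p = 0.00487) with values of -0.08 and -0.14 in the others and an interaction of 0.55 (adjusted p = 0.0415). H2afy3 fell by 0.22 in Tip60 KD (adjusted p = 0.0844), and the testis H2B gene Hist1h2ba rose (0.27, adjusted p = 0.0512). Of the replicative linker histones only 2 of 5 were bright enough to test, and they moved in opposite directions in every KD. Hist1h1c rose by 0.71, 0.40 and 1.03 (adjusted p = 0.00663, 0.0622 and 0.00351), and Hist1h1e changed by -1.03, -0.65 and -0.84 (adjusted p = 0.000688, 0.00384 and 0.00173), with an interaction of 0.84 (adjusted p = 0.00927).

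The genes with the most similar profile over the 8 arrays were found by the root mean square difference of log2 values, each gene centred on its own mean, among 17917 other genes. For H2afz they were Fah, Cops6 and AU018091, at 0.02, 0.03 and 0.03, against a median gene at 0.26. For H2afv they were 2610002J23Rik, Leng8 and Csrp1, at 0.03, 0.04 and 0.05, against a median of 0.36. 2610002J23Rik changed by -0.66, -0.51 and -0.43 in the 3 KDs. For H2afy they were Ifi30, Ddah1 and Flywch2, all at 0.09, against a median of 0.38. Ifi30 changed by -0.57, -0.38 and -0.96.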

How the data were processed

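Total RNA of 8 ESC samples was amplified, labelled with Cy3 and hybridised to 1-colour Agilent arrays of 43020 spots, and the authors deposited the scanner output, whose unit is fluorescence intensity (Agilent Feature Extraction 10.7.1.1 in the submitters' processing notes). The processed signal had been background-subtracted by the software and was not scaled between arrays. A series matrix was deposited too, as log2 values that rank the probes as each array's median signal does (Spearman rho 1), and served as an alternative. That median signal is the one before background subtraction, and all 39429 probes were fitted. Probe positions on mm9 are those of the files. Promoters are from RefSeq, GRCm38.p6, and show no probe.

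Spots marked as outliers were left out, which left 205 of 22594 kept probes with a missing value, none of them a probe of the 10 genes. The processed signal was divided by the array's 75th percentile, raised to a floor of 0.153 of it (-2.71 on the log2 scale, the highest over arrays of the lowest signal well above background) and converted to log2. Probes above the floor and well above background on at least 2 arrays were kept. A gene with several kept probes was represented by the one brightest on average. limma 3.58.1 in R 4.3.3 (lmFit, eBayes) fitted all 4 groups without a block, with 4 residual degrees of freedom, and p-values were Benjamini-Hochberg adjusted over all kept probes at a threshold of 0.1. The interaction is the double KD change minus the sum of the single changes. Fold changes of values at the floor are understated. The number of arrays, 2 a group, limits the precision. The study calls A and B biological replicates.

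Slide 1 held all A arrays and slide 2 all B arrays, so letter and slide are 1 block. The differences between A and B correlated across probes in all 6 pairs of groups (r from 0.644 to 0.787), so the letters pair the arrays. Each group had its own position on both slides, so position and group cannot be told apart.

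The 10 genes and the gene lists were chosen with earlier results of these data known, and 2 listed genes are not reported here. Named genes were every probe of the 10, both targets, up to 3 genes of each list with the largest rise and fall in Tip60 KD, up to 2 called in the interaction, and the 3 nearest profiles of H2afz and of the 2 members with the widest range of group means. The procedure was tested on simulated data. The alternatives numbered 19, of which 8 left out 1 array. Those 8 fits had no block, so leaving out 1 array puts the difference between slides into the comparisons of its group. Figures were drawn with matplotlib 3.10.9 in Python 3.11.15.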

Additional observations from a re-analysis of the deposited data

Results flagged for a closer look

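H2afv and H2afx differed in their response to Hdac6 KD with and without Tip60 KD, by the test of the difference itself. The interaction was 0.85 on the log2 scale for H2afv (adjusted p = 0.0214, limma) and 0.39 for H2afx (adjusted p = 0.0545). The H2afx call was lost with normexp background correction, in the series matrix and at an adjusted p under 0.05. It also depended on single arrays, as given above. The H2afv call was lost in the series matrix. In both cases the double KD arrays stood above the sum of the single changes, by 0.85 on the A and on the B arrays for H2afv and by 0.41 and 0.38 for H2afx.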

How the results depend on the processing

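Of 20 called results of single genes, 2 kept their call under every alternative run, the falls of H2afv in Tip60 KD and of H2afy in double KD. H2afz in Tip60 KD was the 1 result that reversed, to a log2 change of 0.0299 with quantile normalisation. Of 50 results not called, 29 stayed so throughout. The causes were not tested.

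Of the 10 genes, the number called with 1 array left out ranged from 3 to 5 in Tip60 KD, 1 to 3 in Hdac6 KD, 2 to 4 in double KD, 0 to 0 for double KD against Tip60 KD, 0 to 1 for double KD against Hdac6 KD, 0 to 2 for Tip60 KD against Hdac6 KD and 1 to 2 for the interaction, where a lone array is assumed to vary like the other groups. In those fits at most 0.0664% of all probes passed for double KD against Tip60 KD. With the array letter as a replicate block, the number of the 10 genes called was 4 for double KD against Tip60 KD. It was 6 for double KD against Hdac6 KD, 5 for Tip60 KD against Hdac6 KD and 4 for the interaction. These stood in place of 1, 1, 3 and 2, and the block removed no call. Of all probes 27.6%, 29.3%, 42.4% and 47.7% passed with the block, in place of 4.73%, 10.2%, 23.9% and 23.3%. With the series matrix values it was 1 in Tip60 KD, 0 in Hdac6 KD, 1 in double KD and 0 in the other 4 comparisons, where 13.1%, 4.96% and 6.14% of all probes passed in the 3 KDs and at most 3.46% in the others. Hdac6 KD gave 2 with the same background on every array, with no filter on dim probes or with the mean of a gene's probes. It gave 1 with only the arrays compared in the fit or at an adjusted p under 0.05, in place of 4. The shares of all probes, or of all genes for the mean, were 27.1%, 13.2%, 29.5%, 25.1% and 21.7%, in place of 30.0%. Double KD gave 1 with quantile normalisation, in place of 4, where 29.3% of all probes passed, in place of 33.8%. Double KD against Tip60 KD gave 2 with quantile normalisation or no filter, where 4.27% and 2.78% of all probes passed, in place of 4.73%. It gave 0 with normexp, no common floor, 1 probe per gene or the mean of a gene's probes. It also gave 0 with only the arrays compared or at an adjusted p under 0.05. Where it gave 0, at most 3.92% of all probes or genes passed. Double KD against Hdac6 KD gave 2 with the same background or no filter, and 0 with only the arrays compared. Of all probes 8.36%, 4.79% and 0% passed there, in place of 10.2%. Tip60 KD against Hdac6 KD gave 1 with normexp, and 0 with only the arrays compared or at an adjusted p under 0.05. Of all probes 19.4%, 14.8% and 16.8% passed there, in place of 23.9%. The interaction gave 1 at an adjusted p under 0.05, which 15.0% of all probes passed, in place of 23.3%.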
